A study of Mus musculus with 22 samples.

Results

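The comparison of newborn brain rests on the 8 arrays whose source is whole brain of postnatal day 1 (P1) mice labelled knockout, out of 22 arrays in the series. Each dual-colour array carried RNA of 1 animal labelled Agtr2 knockout and 1 control animal, and the labels give 4 knockout and 4 control animals as biological replicates. Every P1 replicate was hybridised in both dye orientations, with the knockout in Cy3 on 1 array and in Cy5 on the other. The remaining 14 arrays hold brains of embryonic day 15 (E15), with 8 animals labelled knockout and 6 controls. The labels give neither the allele, the deleted part of the gene, the strain nor the sex of the animals, and they state no treatment for either group. A change is the log2 of labelled knockout over control, averaged over both orientations of a replicate. E15 replicates 3 and 4 had 1 array each. From these the mean dye effect of the other E15 replicates was subtracted. A probe was used where it had an unflagged spot in both orientations of at least 3 replicates.

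Agtr2 is an X-linked gene that encodes a receptor for angiotensin II, the peptide cut from angiotensinogen (Agt) by renin and angiotensin-converting enzyme (Ace). The other angiotensin II receptor, encoded in mice by Agtr1a and Agtr1b, mediates most effects of the hormone on vessels and salt balance, and the Agtr2 product often opposes it. Agtr2 transcription is strongest in fetal tissues and becomes low in most adult organs, and in the brain the receptor has been linked to neuronal differentiation and to protein phosphatase activity.

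Depth on an array is signal over background. The median signal of a channel ran from 58.9 to 160.8 intensity units over a background of 33 to 43, and 71.3% to 89.5% of spots carried the scanner's mark for signal well above background. The software flagged 287 to 3343 spots per array as outliers. Of 41174 probes, 35407 had complete values in 4 replicates and 2786 in 3, and 23329 genes or unnamed probes were complete and bright enough to be tested. Apoe had at most 2 complete replicates, and Wif1 and Rhbg had 0, so no level is given for them.

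The 2 orientations of a replicate did not always give the same picture, which bears on every value that follows. Over the 23329 features, the correlation between both orientations was 0.30 in replicate 1, -0.26 in replicate 2, 0.14 in replicate 3 and 0.12 in replicate 4, a description across features that share their arrays. Over 56 genes of the forebrain, hindbrain and choroid plexus lists it was 0.26, 0.20, 0.77 and 0.71 in the same order. Replicates 3 and 4 thus showed similar regional patterns in both orientations, and replicates 1 and 2 did not. The P1 labels name no control animal, so whether both arrays of a replicate carry the same 2 animals was not tested. With the knockout in Cy5, arrays of different replicates correlated at 0.42 (1 and 2), 0.45 (1 and 3) and 0.43 (2 and 3). Those with replicate 4 stood at -0.19 to -0.0017. With the knockout in Cy3 the correlations ran from 0.06 to 0.37. At E15 the 2 orientations of a replicate correlated at -0.18 to 0.68. The part of dye orientation in these values was not tested. Where replicates 1 and 2 were averaged to 1 value, a setting chosen after seeing the data, 0 features passed the threshold and 2039 had an unadjusted p under 0.05.

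The transcript of the targeted gene, Agtr2, was read by 1 probe and was dim in both groups. In the animals labelled knockout its signal ran from 48.5 to 126.5 units with a median of 71.0, and it was well above background on 6 of 8 arrays. In the controls it ran from 53.8 to 94.3 units with a median of 63.6, and it was well above background on 7 of 8. The ranges overlap. Signals of the labelled knockout were 75.6 to 126.5 units in Cy3 and 48.5 to 66.3 in Cy5, and those of the control 59.4 to 94.3 in Cy3 and 53.8 to 72.6 in Cy5. In both groups the Cy3 signals ran higher than the Cy5 signals, with no overlap in the labelled knockout and with overlap in the control. The change was 0.22, 0.29, -0.13 and 0.07 in replicates 1 to 4. Its mean was 0.11 (SE 0.08, SD 0.19, n = 4; 95% interval -0.09 to 0.31; limma adjusted p = 0.711), with 5 of 8 arrays above 0. At E15 the mean was -0.40 (SD 0.93, n = 8), and the P1 minus E15 difference was 0.50 (SE 0.45, limma adjusted p = 0.961). The labels do not place the deletion relative to the probe, so the probe does not check the genotype labels, and the groups are called by their labels throughout.

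**Figure D1:**
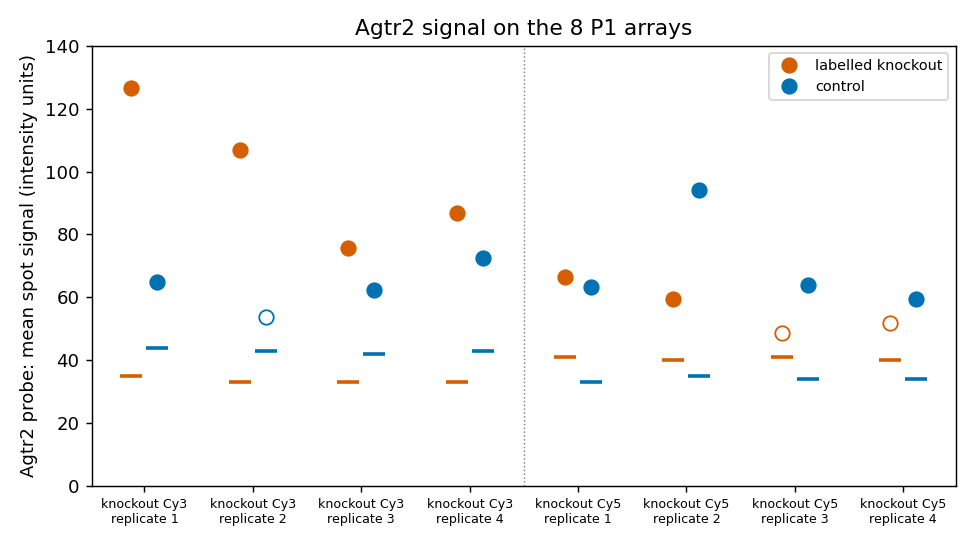
Mean spot signal of the Agtr2 probe (vertical axis, intensity units) in the labelled knockout (orange) and control (blue) channels of the 8 P1 arrays. Filled circles are well above background, open circles are not, and bars mark the local background; knockout signals run from 48.5 to 126.5 and control signals from 53.8 to 94.3.

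No gene of the angiotensin system list, which includes Agtr2, passed the threshold. Of 25 tested members, Agtr2 among them, 17 lay above 0 (68.0%, against 54.9% of all features) and 8 below. The median was 0.02 against 0.01 for all features, and 0 members had an unadjusted p under 0.05. Agt, the precursor, gave -0.16, 0.31, -0.59 and 1.03 in replicates 1 to 4, so its replicates lay on both sides of 0 and its mean of 0.15 (SE 0.26, limma adjusted p = 0.899) turned to -0.15 without replicate 4. Ace, the converting enzyme, had a mean of -0.02 (SE 0.04), and without replicate 1 its mean was 0.0022. For Agtr1a, the main receptor of the other class, the mean was -0.01 (SE 0.06), and it was 0.04 without replicate 1 and 0.0056 without replicate 4. The members farthest from 0 were Thop1, a peptidase that cleaves angiotensin peptides, at -0.19 (SE 0.12), and Agtrap, which binds the type 1 receptor, at 0.17 (SE 0.08), whose 4 probes ran from -0.03 to 0.17. Anpep, an aminopeptidase of the same pathway, stood at 0.15 (SE 0.06).

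The genes next to Agtr2 on the X chromosome were examined because DNA around a targeted locus can differ between lines. Over the 20 nearest tested genes, 10 on each side, the median was 0.01, with 12 above 0. Their values ran from -0.43 for Syn1, a synaptic vesicle protein, to 0.26 for Wdr44. Dock11, a guanine nucleotide exchange factor, gave 0.21, 0.20, 0.24 and 0.08, and Wdr44 gave 0.63, 0.11, 0.22 and 0.08 in replicates 1 to 4. All 4 values of both genes lay above 0, and the adjusted p from limma was 0.425 for Dock11 and 0.520 for Wdr44. Over the whole X chromosome 10.3% of 623 tested genes had an unadjusted p under 0.05, within the 7.78% to 11.3% of the other chromosomes.

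No gene passed the threshold. limma called 0 of 23329 features (0%) at an adjusted p under 0.05, and the lowest adjusted p was 0.213. At an unadjusted p under 0.05 there were 2238 features (9.59%), with 1464 above 0 (6.28%) and 774 below 0 (3.32%). That split rests on the normalization, since median centring in place of loess gave 791 above and 772 below. All 4 replicate values lay above 0 in 2412 of the 21191 features with 4 values (11.4%) and below 0 in 1585 (7.48%). On all 8 arrays the value was above 0 in 358 (1.69%) and below 0 in 125 (0.59%). The median change over all features was 0.01, the median SD over replicates was 0.12, and the 95% interval lay within 2-fold of equality for 99.3% of features. These sizes belong to the main processing, whose offset of 50 units draws ratios of dim spots toward 0. Over the alternatives 6430500C12Rik, with a mean of 0.43, ran from 0.40 to 1.45. Ppp3ca, with a mean of 0.22, ran from 0.16 to 0.85, whereas Afdn ran only from 0.36 to 0.47.

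The 12 genes of lowest p on each side of 0 are described next, with values but no call. Ranking by p favours genes whose replicate values lie close together, so closeness within a gene follows from the choice. A replicate value is the mean of 2 arrays, and these 2 can lie on opposite sides of 0. On the side of higher RNA in the brains labelled knockout, the largest values belonged to transcripts of little known function and to Mirg, a noncoding transcript of the imprinted Dlk1-Dio3 region that hosts microRNAs. Mirg gave 0.58, 0.87, 0.94 and 0.82 in replicates 1 to 4, above 0 on 8 of 8 arrays, with a mean of 0.80 (SE 0.07, limma adjusted p = 0.260). Replicate 1 was the lowest, and no replicate came near 0. The uncharacterised 2610042L04Rik gave 0.91, 1.26 and 0.91 in replicates 2 to 4, with a mean of 1.02 (SE 0.09, n = 3, limma adjusted p = 0.294), and the 3 probes of this symbol ran from 0.01 to 1.02. Its probes therefore did not agree. For 4632427E13Rik the values were 0.63, 0.55, 0.62 and 0.45, with a mean of 0.56 (SE 0.05).

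Named enzymes and adaptors on the same side were more modest. Chuk, the kinase IKK-alpha of NF-kappaB signalling, gave 0.59, 0.50, 0.47 and 0.37, with a mean of 0.48 (SE 0.05, limma adjusted p = 0.279). Ubn2, a subunit of a histone H3.3 chaperone complex, gave 0.67, 0.43, 0.48 and 0.59, but its 3 probes ran from 0.04 to 0.54. Tctex1, a dynein light chain, had a mean of 0.47 (SE 0.04) with replicates between 0.38 and 0.52. Afdn, the junction protein afadin, gave 0.36, 0.36, 0.37 and 0.39, the tightest set of the 12, while its 4 probes ran from -0.06 to 0.37. Its single arrays ran more widely, from 0.17 to 0.56. Fam98b, part of the tRNA ligase complex, had a mean of 0.39 (SE 0.04), with a second probe at -0.05. Sirt7, a nuclear deacetylase, had a mean of 0.36 (SE 0.04), and its other probe read 0.32. MGC65558, 2410005O16Rik and 6430500C12Rik, which have no textbook role, had means of 0.65, 0.44 and 0.43. Thus 4 of the 5 higher genes with several probes had a probe near 0, Sirt7 being the other.

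On the side of lower RNA, Zdhhc2, a palmitoyl transferase that lipidates synaptic and other membrane proteins, had the lowest p of any named gene. It gave -0.62, -0.54, -0.61 and -0.51 in replicates 1 to 4, below 0 on 8 of 8 arrays, with a mean of -0.57 (SE 0.04, limma adjusted p = 0.213). Its replicates were close to each other, yet its single arrays ran from -0.84 to -0.28 and its 3 tested probes from -0.57 to 0.03. Snrpn, an imprinted gene for a splicing protein of neurons, gave -0.94, -0.69 and -0.87 in replicates 1 to 3, with a mean of -0.83 (SE 0.07, n = 3, limma adjusted p = 0.294), and its other probe stood at -0.33. Both probes of Snrpn were thus below 0. In replicate 2 its 2 arrays differed, at -0.0036 with the knockout in Cy3 and -1.38 with it in Cy5. Nsun2, an RNA cytosine methyltransferase, gave -0.31, -0.34, -0.32 and -0.32, with a mean of -0.32 (SE 0.04), and its other probe read 0.04. Scn3b, a beta subunit of voltage-gated sodium channels, gave -0.37, -0.26, -0.43 and -0.51, with a mean of -0.39 (SE 0.05, limma adjusted p = 0.364), and its 3 probes ran from -0.44 to -0.02. Scn3b was above 0 on 2 of 8 arrays.

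The other 8 genes on the lower side were each read by 1 probe. Fbl, the nucleolar methyltransferase fibrillarin, gave -0.67, -0.51, -0.47 and -0.29, with a mean of -0.48 (SE 0.07). Nasp, a histone chaperone, had a mean of -0.36 (SE 0.05), and Incenp, a subunit of the chromosomal passenger complex, -0.37 (SE 0.06). Uba2, a subunit of the SUMO-activating enzyme, had a mean of -0.28 (SE 0.04), the smallest of the 12. Cacybp, an adaptor of ubiquitin ligases, stood at -0.40 (SE 0.06), and Slc15a4, a transporter of lysosomes, at -0.40 (SE 0.06). Manf and Creld2 complete the set and are described with the genes of the endoplasmic reticulum stress response.

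**Figure D2:**
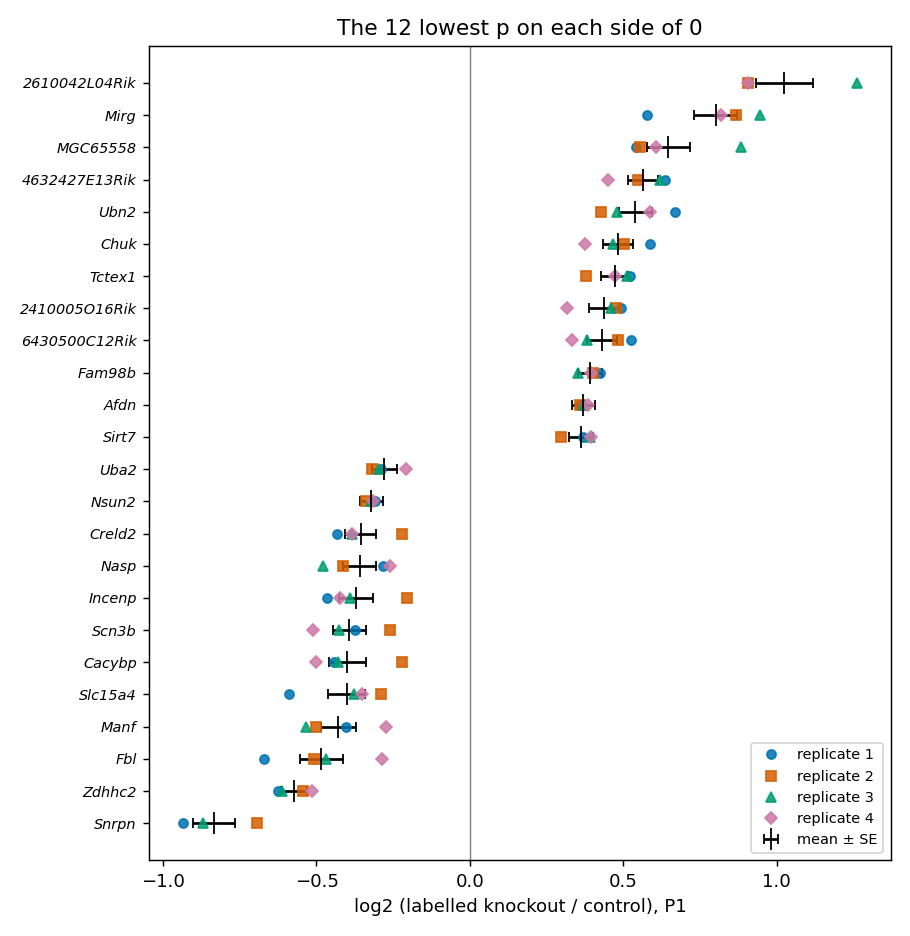
Log2 of labelled knockout over control (horizontal axis) for the 12 genes of lowest p above 0 and the 12 below 0, with 1 point per P1 replicate and the mean with its SE in black. Replicates of each gene lie on 1 side of 0 because the selection required it; the means run from -0.83 (Snrpn) to 1.02 (2610042L04Rik), and no gene passed the threshold.

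Chaperone genes lay mostly below 0. Of 29 tested members of the heat shock and chaperone list, 22 lay below 0 and 7 above, with a median of -0.19 against 0.01 for all features. At an unadjusted p under 0.05 there were 10 below 0 and 2 above, 41.4% of the list against 9.59% of all features, and 0 passed the adjusted threshold. Like every gene list here, this one was chosen with earlier results of these data known, so its share is a description. Hspa8, the constitutive cytosolic chaperone, gave -0.61, -0.36 and -0.53 in replicates 1 to 3, with a mean of -0.50 (SE 0.07, n = 3, limma adjusted p = 0.364), and its other probe read -0.75. Hsp90ab1, the constitutive cytosolic HSP90, gave -1.01, -0.37, -0.36 and -0.20, with a mean of -0.49 (SE 0.14, limma adjusted p = 0.453). Replicate 1 stood lowest for both genes. Hspe1, the mitochondrial co-chaperonin, lay on the other side with 0.39, 0.21, 0.32 and 0.14. The list median was -0.33, -0.13, -0.12 and -0.01 in replicates 1 to 4, and without replicate 1 it was -0.11. At E15 the list median of the 8 replicates ran from -0.24 to 0.22, with a median of 0.01.

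Genes of the endoplasmic reticulum stress response formed a further list. This list was made after the values of Manf and Creld2 had been seen, so its counts are a description of a choice made on these data. It overlaps the chaperone list, so the counts of these lists are not independent. The unfolded protein response induces these genes when unfolded proteins accumulate in that compartment. Of 23 tested members, 19 lay below 0 and 4 above, with a median of -0.10. At an unadjusted p under 0.05 there were 5 below 0 and 0 above, 21.7% of the list against 9.59% of all features. Manf, a secreted factor of the stressed reticulum, gave -0.41, -0.50, -0.53 and -0.27, with a mean of -0.43 (SE 0.06, limma adjusted p = 0.364). Creld2, another resident protein induced by the response, gave -0.43, -0.22, -0.38 and -0.39, with a mean of -0.36 (SE 0.05). Dnajc3, a co-chaperone that also restrains a stress kinase, gave -0.25, -0.20, -0.43 and -0.15, and its 4 probes ran from -0.26 to -0.0020. Xbp1, a transcription factor of the response, gave -0.22, -0.50, -0.26 and -0.15. All 4 values were below 0 for each of these genes, whereas Hspa5, the main chaperone BiP, gave -0.41, -0.49, -0.77 and 0.07, with replicate 4 above 0. The list median was -0.15, -0.19, -0.20 and 0.00 in replicates 1 to 4, and at E15 it ran from -0.21 to 0.34.

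The unfolded protein response acts on many of these genes through the endoplasmic reticulum stress element, whose letters are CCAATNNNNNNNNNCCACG. RefSeq promoters (GRCm38.p6) were searched on both strands in the 250 bases before each start. The motif was in 37 of 32851 windows (0.113%), and in those of 9 of the 22 list members that have an entry. The first count is of windows and the second of genes, so the shares differ in unit. Creld2 and Dnajc3, whose 4 values all lay below 0, and Hspa5, whose values did not, are shown because they carry it. Manf and Xbp1, whose 4 values also all lay below 0, are not among the 9. Whether the element goes with lower RNA was not tested. Each runs 5′ to 3′ on the strand of the gene, with the match in capitals, and that of Creld2 is on the opposite strand. Creld2 covers chr15:88819396-88819645, Dnajc3 chr14:118937682-118937931 and Hspa5 chr2:34771840-34772089, all on the plus strand.
Creld2: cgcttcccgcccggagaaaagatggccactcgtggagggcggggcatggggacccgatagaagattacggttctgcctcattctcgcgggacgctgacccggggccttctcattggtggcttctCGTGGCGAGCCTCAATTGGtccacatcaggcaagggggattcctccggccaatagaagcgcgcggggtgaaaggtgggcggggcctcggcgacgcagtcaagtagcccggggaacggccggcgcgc
Dnajc3: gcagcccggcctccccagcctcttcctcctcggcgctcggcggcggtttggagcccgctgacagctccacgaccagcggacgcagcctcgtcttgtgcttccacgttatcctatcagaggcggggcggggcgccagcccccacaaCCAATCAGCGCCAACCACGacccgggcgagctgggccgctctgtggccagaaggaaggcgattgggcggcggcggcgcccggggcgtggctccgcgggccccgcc
Hspa5: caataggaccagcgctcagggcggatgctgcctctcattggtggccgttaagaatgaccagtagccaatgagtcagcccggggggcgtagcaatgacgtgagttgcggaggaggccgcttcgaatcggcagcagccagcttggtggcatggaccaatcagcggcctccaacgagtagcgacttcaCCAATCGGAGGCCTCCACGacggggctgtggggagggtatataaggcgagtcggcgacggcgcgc
The match began 126 bases before the start in Creld2, 105 in Dnajc3 and 65 in Hspa5. A match is a description of letters and does not show that the element was in use.

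Genes of the cytosolic ribosome spread to both sides, with more above 0. Of 50 tested members, 33 lay above 0 and 17 below, with a median of 0.11. At an unadjusted p under 0.05 there were 11 above and 4 below, 30.0% of the list against 9.59%. That share too is a description, from a list chosen with earlier results of these data known. Rps13 gave 0.63, 0.57, 0.19 and 0.20 in replicates 1 to 4, with a mean of 0.40 (SE 0.10), and its other probe read 0.04. Rpl4, a protein of the large subunit, lay on the other side with -1.38, -0.57, -0.58 and -0.37, and a mean of -0.73 (SE 0.17, limma adjusted p = 0.416). Rpsa, of the small subunit, gave -0.29, -0.27, -0.41 and -0.09, and its other probe read 0.10. The list median was 0.21 in replicate 1 and 0.03 to 0.04 in the others, 0.06 without replicate 1, and 0.31 with median centring in place of loess. Many pseudogenes share sequence with these genes, so a probe may read more than 1 locus.

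Neuronal genes were below 0 more often than above it. In whole brain, fewer cells of a type and less RNA per cell cannot be told apart. Of 17 tested postmitotic neuron markers, 14 lay below 0 and 3 above, with a median of -0.22. At an unadjusted p under 0.05 there were 5 below 0 and 0 above, 29.4% of the list against 9.59% of all features. Stmn2, a microtubule regulator of growing axons, gave -0.23, -0.28, -0.13 and -0.27, with a mean of -0.23 (SE 0.04, limma adjusted p = 0.405), while its other probe read 0.07. Tubb3, a neuronal tubulin, gave -0.72, -0.45, -0.05 and -0.31. The list median was -0.69, -0.17, -0.13 and 0.08 in replicates 1 to 4, and -0.06 without replicate 1. Replicate 1 was the lowest of the 4.

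Synaptic and inhibitory neuron genes were mixed. Of 31 synapse and glutamate genes 20 lay below 0, with a median of -0.09. There were 3 below and 2 above at an unadjusted p under 0.05, 16.1% of the list against 9.59% of all features. Dlg4, the scaffold PSD-95, gave -0.22, -0.25, -0.30 and -0.19, with a mean of -0.24 (SE 0.04, limma adjusted p = 0.387). Grm5, a metabotropic glutamate receptor, gave -0.64, -0.48, -0.36 and -0.08, and its other probe read -0.0029. Syn2, a vesicle protein, gave -0.68, 0.07, -0.40 and -0.71. Gria2, an AMPA receptor subunit, lay above 0 with 0.37, 0.21, 0.35 and 0.02. Of 25 GABA neuron genes 16 lay below 0, with a median of -0.07. Calb2, calretinin, gave -0.71, -0.50, -0.34 and -0.12. Gad1, which makes GABA, gave -0.21, -0.47, -0.38 and -0.03, whereas Reln, the secreted protein reelin, gave 0.55, 0.24, 0.02 and 0.46. Hence Calb2 and Gad1 had all 4 values below 0, and Reln had all 4 above.

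Imprinted genes, transcribed from 1 parental copy, were listed after Mirg and Snrpn had been seen. Of 27 tested members 13 lay above 0 and 14 below, with a median of -0.01. There were 6 above and 2 below at an unadjusted p under 0.05, 29.6% of this list, which was chosen on these data, against 9.59% of all features. Meg3, the long noncoding RNA of the same region as Mirg, gave 0.41, 0.45 and 0.53 in replicates 1 to 3, with a mean of 0.47 (SE 0.05, n = 3, limma adjusted p = 0.364), and its 5 probes ran from -0.10 to 0.92. Plagl1, a zinc finger factor, gave 0.49, 0.36, 0.42 and 0.23, and its other probe read -0.06. Igf2, the fetal growth factor, gave 0.29, 0.24, 0.18 and 0.20, with a mean of 0.23 (SE 0.04, limma adjusted p = 0.397), and its other probe read 0.36. Igf2 was above 0 on 6 of 8 arrays, and its arrays of replicate 2 read 1.01 and -0.54. Kcnq1ot1, an antisense noncoding RNA, gave 0.42, 0.42, 0.11 and 0.15, and the strand of the probe was not tested. Ndn, the neuronal protein necdin, lay below 0 with -1.74, -0.72, -0.18 and -0.43. Of the imprinted genes named, those above 0 include both noncoding and coding transcripts. Those below 0, Snrpn and Ndn, are coding genes of chromosome 7, which also holds Igf2, a coding gene above 0.

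X-linked genes of intellectual disability were close to balance. Of 35 tested members 21 lay below 0 and 14 above, with a median of -0.04. There were 3 on each side at an unadjusted p under 0.05, 17.1% of the list against 9.59% of all features. Ogt, which attaches N-acetylglucosamine to nuclear proteins, gave 0.83, 0.19, 0.92 and 0.61, with a mean of 0.64 (SE 0.13, limma adjusted p = 0.405) and 3 probes from 0.04 to 0.64. For the phosphatase and MAPK feedback list, which holds enzymes linked to this receptor in textbooks, 17 of 33 lay above 0, with a median of 0.02. Ppp2cb, a catalytic subunit of phosphatase 2A, gave -0.39, -0.31, -0.43 and -0.09, and Ppp3ca, the calcineurin catalytic subunit, gave 0.41, 0.18, 0.20 and 0.10. These phosphatases lay on opposite sides of 0 in every replicate.

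Metabolic and other cell type lists gave single genes with 1-sided replicate values, not always 1-sided on single arrays. In the respiratory chain list 20 of 34 lay below 0, with a median of -0.03. That list median was -0.14, 0.12, -0.24 and 0.14 in replicates 1 to 4. Cox6a1, of complex IV, gave 0.27, 0.37, 0.24 and 0.22. Sdha, of complex II, gave -1.01, -0.39, -0.71 and -0.07, and its 3 probes ran from -0.54 to 0.07. Among 18 endothelial and pericyte genes 10 lay above 0, with a median of 0.06. Vwf, made by endothelium, gave 0.80, 0.65, 0.15 and 0.30, and its 3 probes ran from 0.03 to 0.48. Among 18 astrocyte genes 13 lay below 0, with a median of -0.17, or -0.08 without replicate 1 and -0.30 without replicate 2. The astrocyte list median was -0.44, 0.10, -0.46 and 0.11 in replicates 1 to 4, so it changed side between replicates. Glul, glutamine synthetase, gave -0.45, -0.36 and -0.06 in replicates 1, 3 and 4, and its 3 probes ran from -0.29 to 0.16. Olig1, of the oligodendrocyte lineage, gave -0.84, -0.26, -0.77 and 0.0050, the last in effect at 0. Junb, an immediate early transcription factor, gave 0.22, 0.22, 0.46 and 0.34, and 13 of 22 genes of its list lay above 0. On single arrays Junb was above 0 on 5 of 8. It ran from -0.60 to 0.0037 with the knockout in Cy3 and from 0.88 to 1.04 with it in Cy5. Erythroid genes lay above 0 in 12 of 13 with a median of 0.05, and Tfrc, the transferrin receptor, gave 0.23, 0.18, 0.04 and 0.44. In the sex-linked list Ddx3x, an X-linked RNA helicase, gave 0.49, 0.27, 0.59 and 0.18, and Xist, the RNA of the inactive X, gave 0.17, 0.24, -0.04 and 0.07. Of 20 neural progenitor genes and 28 Wnt signalling genes, 0 had an unadjusted p under 0.05.

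The remaining lists had medians near that of all features. Cell cycle genes lay below 0 in 22 of 32, with a median of -0.03. Microglial genes lay below 0 in 11 of 18, meningeal genes in 13 of 20, hypoxia genes in 11 of 19 and monoamine and neuropeptide genes in 13 of 24, with medians of -0.03, -0.02, -0.02 and -0.02. Genes of skeletal muscle, a tissue that a brain sample should not contain, lay above 0 in 8 of 14, with a median of 0.01 and replicate medians from -0.03 to 0.02.

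**Figure D3:**
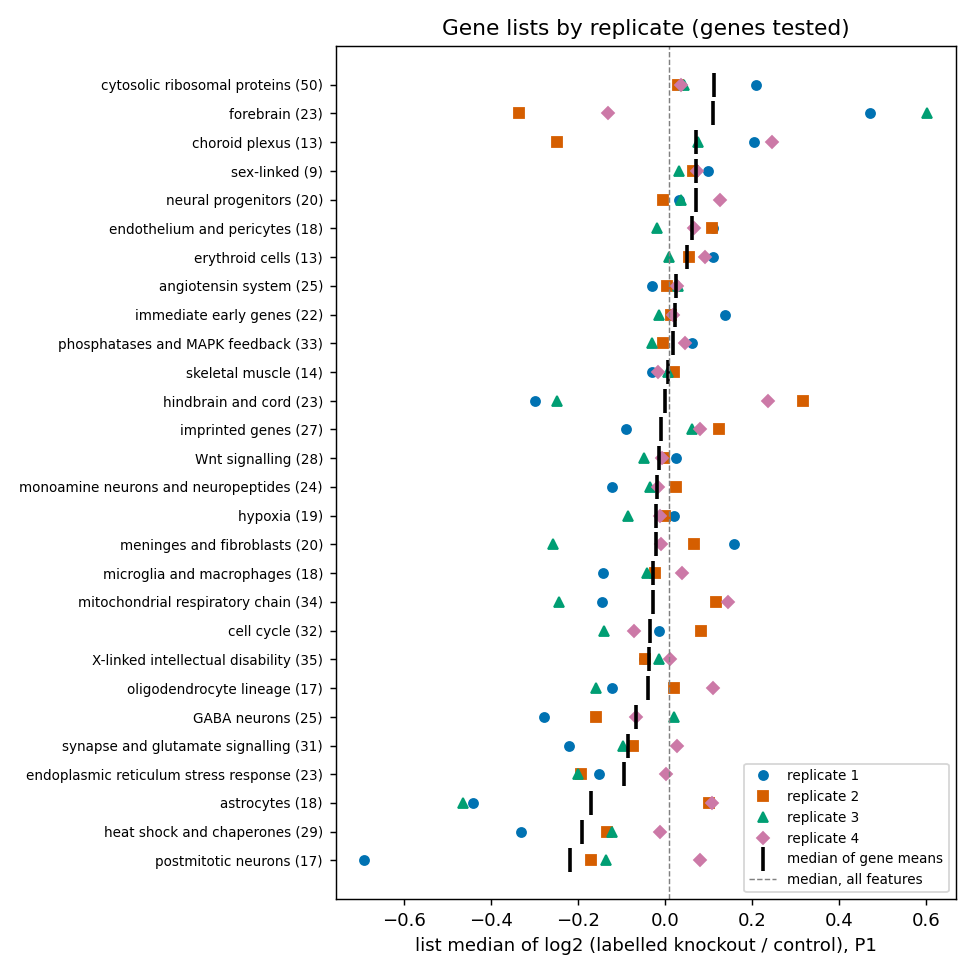
Median log2 of labelled knockout over control (horizontal axis) of each gene list in each P1 replicate, with the median of the gene means in black, the number of genes tested in parentheses and the median of all features dashed. Replicate medians are widest for forebrain (-0.34 to 0.60) and postmitotic neurons (-0.69 to 0.08). All lists were chosen with earlier results of these data known, and 2 (endoplasmic reticulum, imprinted) were added after the present values were seen.

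Genes that mark brain regions were among those whose replicates differed most, although the widest spread belonged to Lars2, with an SD of 2.34. Of the features with an SD over 1 and 4 values, 23 of 39 had replicates 1 and 3 on the opposite side of 0 from replicates 2 and 4. These 39 were chosen for their spread, and the division of the replicates was read from the same values, so the counts of this pattern are descriptions. Lhx2, a transcription factor that patterns the cortex, gave 2.00, -0.70, 0.47 and -0.49 in replicates 1 to 4. Hoxb5, a patterning gene of the caudal hindbrain and spinal cord, gave -1.51, 1.28, -2.22 and 1.51. Each of them was above 0 where the other was below it, in every replicate. Among 21 forebrain genes with 4 values, 11 lay above 0 in replicates 1 and 3 but below it in replicates 2 and 4, against 5.61% of all features, and 0 showed the reverse. Of 23 hindbrain and cord genes 14 showed the reverse pattern, against 7.64% of all features, and 1 the forebrain pattern. The reverse pattern was not confined to region markers. Among genes with 4 values it was shown by 8 of 14 astrocyte genes and 12 of 26 respiratory chain genes. The forebrain list median was 0.47, -0.34, 0.60 and -0.13, and that of the hindbrain and cord list -0.30, 0.32, -0.25 and 0.24. Over the means of 4 replicates the list medians were 0.11 and 0.00. The mean of Lhx2 was 0.32, or -0.24 without replicate 1, and that of Hoxb5 was -0.23, or 0.19 without replicate 1 and 0.43 without replicate 3.

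Single arrays show where these values arose. Hoxb5 read -2.99 in replicate 1 with the knockout in Cy3 and -0.04 with the knockout in Cy5. In replicate 2 it read 2.65 and -0.09, in replicate 3 -2.94 and -1.49, and in replicate 4 2.17 and 0.85. The Cy5 arrays of replicates 1 and 2 thus stood near 0 where their Cy3 arrays were far from it and opposite in sign. Lhx2 read 2.67 and 1.33 in replicate 1, -0.21 and -1.19 in replicate 2, 0.22 and 0.73 in replicate 3, and -0.95 and -0.03 in replicate 4. Its side of 0 was the same in both orientations of every replicate. Ttr, the transthyretin of the choroid plexus, gave 1.50, -1.92, 0.95 and 1.44, with replicate 2 far below the others, and Clic6 and Kcne2 of the same list were lowest in that replicate too, at -0.69 and -0.72. The part of tissue composition in the other gene groups was not tested.

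**Figure D4:**
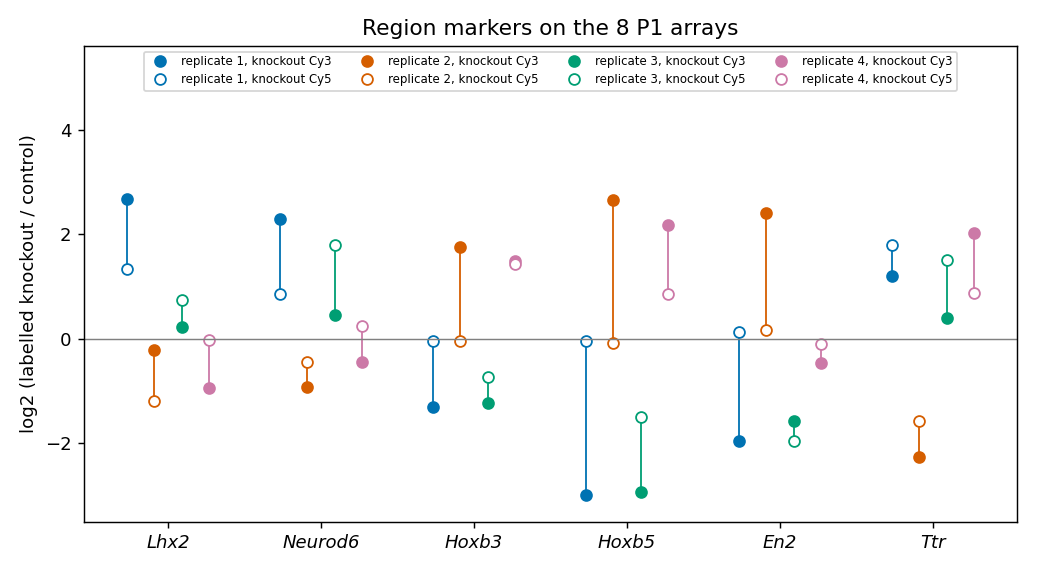
Log2 of labelled knockout over control (vertical axis) on each of the 8 P1 arrays for forebrain genes (Lhx2, Neurod6), hindbrain and midbrain-hindbrain genes (Hoxb3, Hoxb5, En2) and the choroid plexus gene Ttr. Filled circles have the knockout in Cy3, open circles in Cy5, and lines join the 2 arrays of a replicate; Hoxb5 runs from -2.99 to 2.65 on filled circles and from -1.49 to 0.85 on open ones.

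Replicate 1 stood apart in a second way. It had 206 features beyond 2-fold, 171 of them below 0, against 19, 56 and 34 in replicates 2, 3 and 4. Lars2, a mitochondrial leucyl-tRNA synthetase, gave -5.19, -0.70, -0.19 and -0.74, and Grn, progranulin, gave -4.08, -0.49, -0.68 and -0.23. Both orientations of replicate 1 agreed in side and rough size, with Lars2 at -6.33 and -4.04 and Grn at -4.47 and -3.68. For these genes all 4 values lay below 0, and replicate 1 was by far the lowest. Outside replicate 1 the 2 orientations did not always share a side. Lars2 was above 0 on 3 of 8 arrays, as in replicate 4 with 0.48 and -1.96. Grn was above 0 on 1 of 8, in replicate 4 with 0.41 and -0.86. The mean of Lars2 was -1.70 (SE 0.87, limma adjusted p = 0.596) and that of Grn -1.37 (SE 0.68, limma adjusted p = 0.578). Without replicate 1 the means were -0.54 and -0.46, and the other probe of Grn read -0.28. Correlations of replicate values over all features were 0.37 between replicates 1 and 3, 0.20 between 1 and 2, 0.15 between 1 and 4, 0.13 between 2 and 4, 0.09 between 2 and 3 and -0.19 between 3 and 4.

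The P1 values were set beside those of E15, which share no animal with them. limma called 0 of 23272 features (0%) for the difference between the ages, with a lowest adjusted p of 0.0904 and 1053 (4.52%) at an unadjusted p under 0.05. Without P1 replicate 1 that number was 590. With only the 6 E15 replicates that have both orientations it was 777, and the lowest adjusted p from limma was 0.786. The lowest p belonged to an unnamed probe with a P1 mean of -0.50 and an E15 mean of -0.03. Scn3b came next, with a P1 mean of -0.39 and an E15 mean of 0.25, a difference of -0.65 (SE 0.11, adjusted p = 0.585). Its P1 values ran from -0.51 to -0.26 and its E15 values from -0.06 to 0.54, so the ranges did not overlap. It was chosen for its low p and did not pass the threshold.

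At E15, which had no role in choosing them, the 12 genes highest in rank above 0 at P1 all had a mean above 0, from 0.03 for Sirt7 to 0.58 for Tctex1, with a median of 0.23. Among all features the E15 mean was above 0 in 47.7%. The 12 genes below 0 at P1 had an E15 mean above 0 in 8 cases, with a median of 0.11. The SD of the E15 values was wide for several, such as 1.02 for Mirg around a mean of 0.28 and 0.73 for Snrpn around 0.24. Over all features the median SD was 0.12 at P1 and 0.18 at E15.

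**Figure D5:**
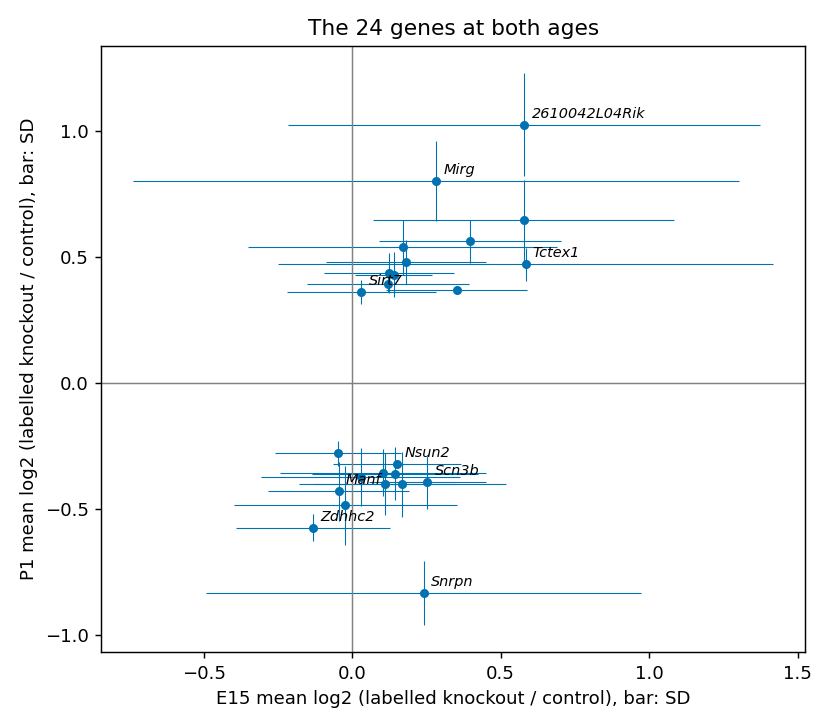
Mean log2 of labelled knockout over control at E15 (horizontal axis) against P1 (vertical axis) for the 12 genes of lowest P1 p on each side of 0, with bars of 1 SD over 8 E15 and 4 P1 replicates where all have values. The 12 genes above 0 at P1 lie at E15 means from 0.03 to 0.58, and 8 of the 12 below 0 at P1 lie above 0 at E15.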

How the data were processed

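Total RNA of frozen whole-brain slices was treated with DNase and linearly amplified, per the labels' protocols. The scanner files hold, per the file headers, spot intensity and local background per channel, without normalization, and a log10 ratio of Cy5 over Cy3 from processed signals. The deposited matrix holds log10 ratios too. Aligners do not apply; the build of the probe annotation is not given in the sources used here. Mean signals were corrected by normexp (offset 50) and normalized by loess within arrays (limma 3.58.1, R 4.3.3); flagged spots were set to missing, ratios turned to knockout over control and both orientations averaged. Complete probes well above background in at least 50% of P1 channels were kept, and a gene was its brightest probe. Replicate values were tested against 0 with lmFit and eBayes, and the age difference with the shared E15 controls as a random block (correlation 0.0472), both with Benjamini-Hochberg adjustment at 0.05. Gene names came from accessions and a mouse table of assembly GRCm38.p6 (33514 of 41174 probes). Functions were tested on simulated data.

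Named were Agtr2 and its pathway, the 12 lowest p above and below 0 with a symbol and on 1 side in every value, up to 4 members of each list, and genes named in earlier results of these data; the genes of largest SD, the neighbours of Agtr2 and any other named gene were added after their values were seen. Members, lists and designs were chosen with earlier results of these data known. Pairing of knockout and control is that of the array. P values measure only the spread between these replicate values, with a prior variance shared over features. That spread holds differences between arrays as well as between animals. Alternatives covered background, normalization, flags, filters, priors, blocks and each replicate left out. Some genes that these rules name are not reported here.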

Additional observations from a re-analysis of the deposited data

Results flagged for a closer look

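Of 112 groups of 4 values examined, 4 held a value far from the others. Chance alone marks about 1 in 20 unselected groups. That rate does not apply here, because the groups include genes chosen for low p and for large spread, among them Lars2, Grn and Ttr. Lars2 read -5.19 in replicate 1 against -0.74 to -0.19 in the others. Grn read -4.08 in replicate 1 against -0.68 to -0.23. Ttr read -1.92 in replicate 2 against 0.95 to 1.50. The median of the ribosomal protein list was 0.21 in replicate 1 against 0.03 to 0.04.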

How the results depend on the processing

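The count of features past the threshold, 0, stayed 0 under 17 of 19 alternatives. With a trended, robust prior 4 features passed, Mirg, 6430500C12Rik and 2 unnamed probes. With array values, a dye term and the replicate as a random block 8 passed, among them Chuk, Snrpn, 4632427E13Rik and 6430500C12Rik. The 2238 features at an unadjusted p under 0.05 became 982 with no replicate block (separated channels, 4 against 4 animals) and 1548 to 2619 when a replicate was left out. For the age difference, 0 features passed in all 8 alternatives, including the fit with replicates 1 to 4 of both ages as a replicate block; same-numbered replicates of the 2 ages correlated at -0.07 to 0.18, so the numbers do not pair them. The 1053 features at an unadjusted p under 0.05 for that difference became 590 to 1444 when a P1 replicate was left out and 3519 with the replicate block. When a replicate was left out, Ace ran from -0.040 to 0.0022, Agtr1a from -0.061 to 0.036 and Agt from -0.15 to 0.39, each on both sides of 0. Of 11 genes described for their spread or place, 5 had means on both sides of 0 when a replicate was left out: Lhx2 (-0.24 to 0.66), Hoxb5 (-0.82 to 0.43), Hoxb3 (-0.27 to 0.55), En2 (-0.99 to 0.03) and Kcne2 (-0.13 to 0.28). Hoxb3 was also below 0 with the scanner's processed signals (-0.33) and the deposited matrix (-0.32). Apart from Ace, Agtr1a, Agt and these 5, the genes given a mean by name kept their side of 0 in the alternatives run for them; for Neurod6, Clic6 and Syn1 these were the left-out replicates alone. Over all lists and alternatives, 11 list medians moved by the SD of their replicate medians or more, and 521 did not. The erythroid median of 0.05 became 0.17 with the processed signals and the deposited matrix. The skeletal muscle median of 0.01 became -0.02 with both, -0.03 with median centring and -0.02 without replicate 2. A fit with slide or scan day as a block was not run, because each P1 array had its own slide and all were scanned on 1 day. Dim probes, outlier flags and 4 animals per group limit what could be detected.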
